A study of Arabidopsis thaliana with 18 samples.

Results

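VND6 cells sampled 12 h after estrogen were set against SND1 cells sampled at the same time. The members are the 3 arrays titled VND6_12h and the 3 titled SND1_12h, 6 of the 18 arrays of the series, chosen by their titles. The VND6_12h cells were cultured Arabidopsis thaliana cells transformed with an estrogen-inducible VND6 construct, and the SND1_12h cells were cultured cells transformed with an estrogen-inducible SND1 construct. Each had been given 2 µM estrogen 12 h before sampling. The same transformed lines sampled at 0 h (VND6_0h and SND1_0h, 3 arrays each) gave the difference between the lines at 0 h. The labels give 2 µM estrogen for these arrays too, and their time of 0 h is taken here as before induction. Untransformed cultured cells under the same 12 h estrogen treatment (wt_12h, 3 arrays) are given for context only. Whether each transformed line is 1 clone, and whether replicates came from separate cultures, is not given in the sources used here. P-values and standard errors therefore reflect only the spread of arrays within groups, part or all of which could be technical. That spread was estimated over all 18 arrays of the series, so it is not the scatter of the 6 compared arrays alone. Transcripts of VND6 and SND1 themselves are not analysed here, and the dose of each factor is unknown.

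VND6 and SND1 are transcription factors of the plant NAC family. VND6 is known to switch cells to the fate of metaxylem vessels, which lay down a patterned secondary wall and then die and empty themselves. SND1 is known to drive the evenly thickened secondary wall of fibres, whose programmed death comes later. Secondary walls are built of cellulose, xylan and lignin, and lignin forms when laccases and peroxidases oxidise monolignols in the wall. The comparison addresses which transcripts differ between cells given the vessel regulator and cells given the fibre regulator.

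Each Affymetrix ATH1 array gave 1 linear signal for each of 22810 probe sets, scaled by the authors, and the median signal of the 6 arrays was 108 to 132. Differences are VND6_12h minus SND1_12h on the scale of log2(signal + 4.32), with 4.32 taken as the 10th percentile over all deposited signals, which understates the fold of dim probe sets. A probe set was called where its Benjamini-Hochberg adjusted p from limma, over the 15715 probe sets bright enough to test, was under 0.05. Precision is limited by having 3 arrays in each group. The replicates were unevenly spaced. Spearman's rho over the tested probe sets was 0.990 between VND6_12h arrays 2 and 3, against 0.925 and 0.923 between array 1 and these, and it was 0.937 between VND6_12h array 1 and SND1_12h array 1. Among the SND1_12h arrays it was 0.991 between arrays 2 and 3, against 0.958 and 0.953 for array 1. The labels name a pair of labelling kits without tying either to an array, so their part in this spacing was not tested.

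At 12 h, 442 probe sets were called, which is 2.81% of those tested. Of these, 163 were higher in VND6_12h (1.04%) and 279 were lower (1.78%). The annotation gave no gene to 67 of the 163 and to 138 of the 279, against 8730 of all 22810 probe sets, tested or not. The accounts by gene and gene group below do not cover those calls. Fewer probe sets were higher, yet their median difference was larger in size. The median difference was 2.06 among those called higher, where 85 (52.1%) exceeded 2 on the log2 scale and 28 exceeded 4. Among those called lower the median was -1.50, with 95 (34.1%) beyond 2 and 12 beyond 4. The extremes were alike on both sides. A probe set called lower differed by -9.33 and one called higher by 9.14. Both have no gene in the annotation and lie beyond any named gene. The median over all probe sets tested was -0.10, and it was -0.01 after quantile normalization, under which 176 were higher and 215 lower. The 3 VND6_12h arrays lay above all 3 SND1_12h arrays in 162 of the 163 called higher, against 936 of all tested (5.96%). They lay below in 279 of the 279 called lower, against 2426 of all tested (15.4%). Calls and overlap come from the same arrays, so the near absence of overlap among calls is built in and does not test them. In the comparison VND6_12h against SND1_12h the count depends on replicate 1. Replicates 2 and 3 alone gave 4634 calls, which included all 442. Counting replicates 2 and 3 as 1 averaged replicate left 58, also all among the 442, and leaving out 1 array gave 651 calls without VND6_12h array 1 and 254 and 260 without VND6_12h arrays 2 and 3. The counts were 325, 235 and 238 without SND1_12h arrays 1, 2 and 3.

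**Figure D1:**
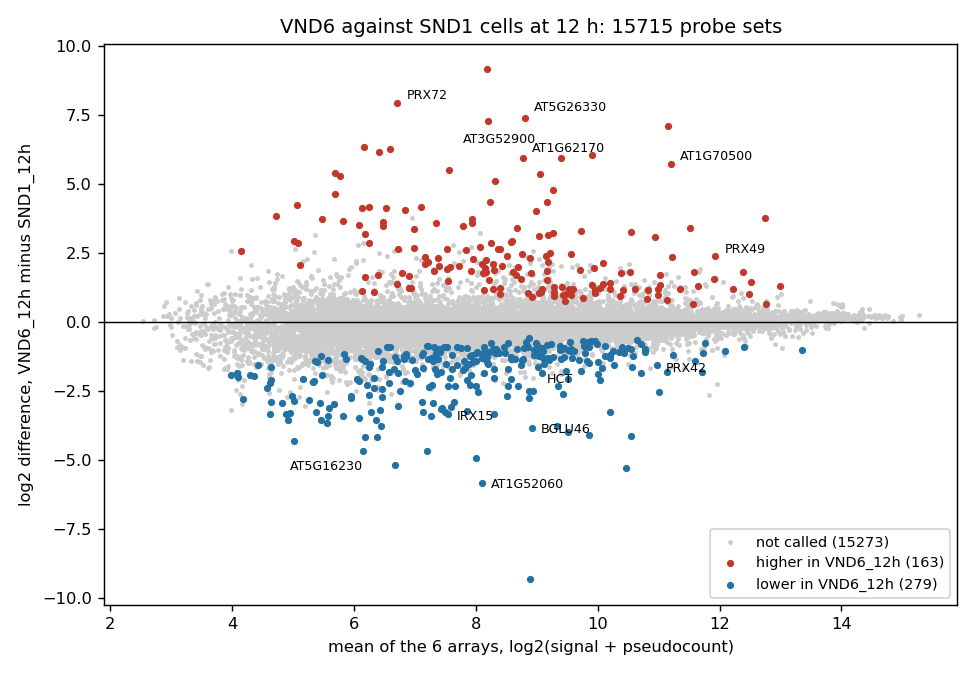
The log2 difference, VND6_12h minus SND1_12h, of each of 15715 tested probe sets is plotted against its mean over the 6 arrays on the log2(signal + pseudocount) scale. Red points are the 163 called higher in VND6_12h and blue points the 279 called lower. The largest named difference is PRX72 at 7.93, the unlabelled points beyond it on either side have no single gene in the annotation, and the calls lower in VND6_12h crowd closer to 0.

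By gene, with 1 probe set each, 230 of 8703 tested genes were called (2.64%), 92 of them higher (1.06%) and 138 lower (1.59%). These shares are the background for the counts of gene groups that follow. The groups are lists of genes by process and families by symbol or locus. The lists were chosen with earlier results of these data known, and the families were defined after values were seen. A count above the background share may be built in by that choice, so the counts are a description only. No set test was made.

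Lignin-linked genes differed in both directions. PRX72, a class III peroxidase known for lignin formation in the stem, had the largest difference of any named gene. Its signal was 1617, 1613 and 1658 on the VND6_12h arrays, against 2.07, 2.00 and 3.20 on the SND1_12h arrays, and 8.36, 3.03 and 2.52 on the wt_12h arrays. PRX72 was bright on every VND6_12h array and as dim on the SND1_12h arrays as on those of wt cells, with a log2 difference of 7.93 ± 0.58 (SE, n = 3 each, limma adjusted p = 6.7e-07). Before induction it was dim in both lines, with a difference of -0.07 at 0 h. PRX66, a peroxidase known from differentiating vessels, gave 279, 343 and 311 on the VND6_12h arrays and 30.8, 115 and 79.1 on the SND1_12h arrays, a difference of 2.16 ± 0.46 (limma adjusted p = 0.0156). The PRX66 call was lost without VND6_12h array 2 or 3 or SND1_12h array 1, with an adjusted p of up to 0.0798.

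HCT, the acyltransferase that leads into monolignol synthesis, went the other way. It gave 233, 318 and 329 on the VND6_12h arrays, against 682, 1091 and 998 on the SND1_12h arrays and 278, 460 and 535 on the wt_12h arrays. The VND6_12h and wt_12h arrays overlapped and the SND1_12h arrays lay above both. The HCT difference was -1.63 ± 0.29 (limma adjusted p = 0.00432). BGLU46, a beta-glucosidase known to split monolignol glucosides, was likewise lower, with 80.4, 188 and 124 on the VND6_12h arrays, against 1217, 2283 and 2230 on the SND1_12h arrays and 75.5, 152 and 184 on the wt_12h arrays. Its VND6_12h arrays overlapped those of wt cells and its SND1_12h arrays did not overlap them (-3.85 ± 0.41, adjusted p = 4.21e-05). Of the 22 genes of the lignin list, 4 were named on the array and 3 tested, and all 3 were called: PRX72 and PRX66 higher, HCT lower. BGLU46 was outside that list and is counted in its family.

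The class III peroxidases, a large family of secreted enzymes that can either cross-link or loosen walls, held calls on both sides. Of 73 family genes, 55 were named on the array and 25 were tested. There were 4 higher and 3 lower, and the median of the 25 differences was -0.32, against -0.10 over all genes tested. PRX26 gave 243, 840 and 950 on the VND6_12h arrays, against 34.6, 17.9 and 35.2 on the SND1_12h arrays (4.17 ± 0.84, adjusted p = 0.0101). PRX49 gave 2293, 17226 and 17751 on the VND6_12h arrays, against 1602, 1926 and 1620 on the SND1_12h arrays and 224, 126 and 146 on the wt_12h arrays. All SND1_12h arrays of PRX49 lay above those of wt cells, and VND6_12h arrays 2 and 3 lay far above both while array 1 lay just above SND1_12h. The PRX49 difference of 2.37 ± 0.56 (adjusted p = 0.0296) was 0.52 in replicate 1 and 3.304 in replicates 2 and 3. Its call was lost without any 1 array other than VND6_12h array 1, with an adjusted p of up to 0.188.

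Among the peroxidases lower in VND6_12h, PRX42 had the tightest replicates, with 1097, 1237 and 1181 on the VND6_12h arrays, against 3375, 3556 and 3393 on the SND1_12h arrays and 4006, 3707 and 3667 on the wt_12h arrays. Here the SND1_12h arrays lay slightly below those of wt cells and the VND6_12h arrays far below both (-1.55 ± 0.15, adjusted p = 1.09e-05). PRX69 gave 818, 972 and 858 on the VND6_12h arrays, against 2920, 3368 and 3316 on the SND1_12h arrays and 1972, 3916 and 4074 on the wt_12h arrays (-1.85 ± 0.32, adjusted p = 0.00318). Its SND1_12h arrays overlapped those of wt cells and VND6_12h alone lay below them. PRX12 had the opposite arrangement. It gave 34.0, 18.2 and 5.39 on the VND6_12h arrays, against 158, 255 and 272 on the SND1_12h arrays and 1.29, 18.9 and 5.41 on the wt_12h arrays, so that only the SND1_12h arrays were above wt cells (-3.48 ± 0.70, adjusted p = 0.0100). The remaining 18 tested peroxidases were not called. PRX61 (-2.60 ± 0.75, adjusted p = 0.0866) and PRX58 (-1.67 ± 0.56, adjusted p = 0.162) had the smallest adjusted p among them. The PRX26 call was lost without VND6_12h array 2 or 3 or SND1_12h array 2 (adjusted p up to 0.0648), and the PRX12 call without SND1_12h array 2 or 3 or VND6_12h array 3 (up to 0.0664). With replicates 2 and 3 averaged, HCT, PRX66, PRX26, PRX49, PRX69 and PRX12 were no longer called, while PRX72, PRX42 and BGLU46 were.

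**Figure D2:**
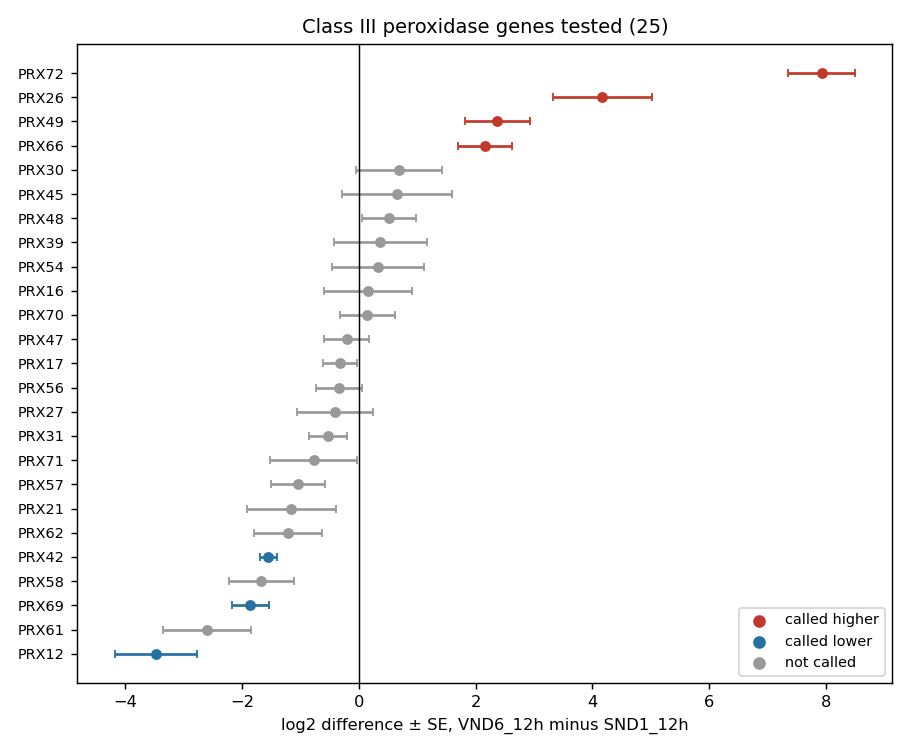
The log2 difference, VND6_12h minus SND1_12h, of the 25 tested class III peroxidase genes is shown as a point with its standard error from limma (n = 3 arrays each). PRX72, PRX26, PRX49 and PRX66 in red were called higher, PRX42, PRX69 and PRX12 in blue were called lower, and 18 in grey were not called.

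Pectin lyase-like proteins, the fold of polygalacturonases that cut pectin in the wall, also split. Of 56 genes, 40 were named on the array and 21 tested, 2 of them higher and 2 lower, with a median of -0.16. AT1G70500 gave 14702, 19430 and 17642 on the VND6_12h arrays, against 139, 494 and 473 on the SND1_12h arrays and 2.33, 3.82 and 1.49999 on the wt_12h arrays. All 3 groups were apart, with the SND1_12h arrays between the others (5.72 ± 0.49, adjusted p = 4.11e-06). AT1G23460 gave 3115, 6491 and 7333 on the VND6_12h arrays, against 46.6, 117 and 99.2 on the SND1_12h arrays and 62.7, 56.8 and 132 on the wt_12h arrays. Here the SND1_12h and wt_12h arrays overlapped (5.94 ± 0.51, adjusted p = 4.11e-06). Its probe set is of a type that can match more than 1 transcript, so a related gene could share the signal.

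The other 2 called members, AT2G43870 and AT2G43880, stood above wt cells by far in SND1 cells instead. AT2G43880 gave 80.8, 109 and 95.1 on the VND6_12h arrays, against 634, 1347 and 1180 on the SND1_12h arrays and 73.0, 69.9 and 77.9 on the wt_12h arrays. VND6_12h lay slightly above wt cells and far below SND1_12h (-3.35 ± 0.32, adjusted p = 1.09e-05). AT2G43870 gave 6.73, 19.4 and 6.25 on the VND6_12h arrays, against 162, 526 and 514 on the SND1_12h arrays (-4.67 ± 0.63, adjusted p = 0.000406), and its VND6_12h arrays overlapped the wt_12h arrays at 14.9, 5.57 and 47.0. Of a further pectin gene, AT5G38610, which encodes a protein of the pectin methylesterase inhibitor type, VND6_12h held 2204, 4365 and 4138, against 86.2, 67.1 and 84.8 on the SND1_12h arrays and 6.09, 2.72 and 26.2 on the wt_12h arrays. Both lines lay above wt cells, VND6_12h by much more (5.36 ± 0.58, adjusted p = 4.21e-05). All 5 of these pectin genes kept their call without any 1 array and with replicates 2 and 3 averaged.

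IRX15, which is needed for xylan of normal length in secondary walls, was above wt cells in both lines and lower in VND6 cells. Its signal was 33.2, 73.9 and 63.2 on the VND6_12h arrays, against 500 (499.6), 578 and 707 on the SND1_12h arrays and 2.50, 3.29 and 1.43 on the wt_12h arrays. The 3 groups did not overlap (-3.35 ± 0.42, adjusted p = 0.000201). Of 18 xylan genes, 4 were named and tested, and IRX15 alone was called. Its close relative IRX15L gave 65.3, 38.0 and 80.5 on the VND6_12h arrays, against 82.4, 185 and 195 on the SND1_12h arrays, arrays that did not overlap but whose difference of -1.24 ± 0.63 was not called (adjusted p = 0.469). The xylan backbone synthase IRX10 differed by -0.38 ± 0.21 and IRX10L by 0.06 ± 0.30, neither of them called. Of the trichome birefringence-like proteins, a family of wall polysaccharide acetyltransferases, 12 were tested and 2 called. TBL19 was higher, with 76.8, 96.1 and 86.5 on the VND6_12h arrays, against 10.2, 2.87 and 14.5 on the SND1_12h arrays (2.85 ± 0.54, adjusted p = 0.00575). TBL39 was lower, with 151, 184 and 168 on the VND6_12h arrays, against 664, 428 and 425 on the SND1_12h arrays (-1.54 ± 0.26, adjusted p = 0.00295). SND1_12h arrays of TBL19 lay below the wt_12h arrays (23.2, 24.0 and 29.4), whereas those of TBL39 overlapped them (591, 289 and 336). AT4G08160, chosen after its values were seen because it encodes a glycosyl hydrolase of the xylanase type, gave 605, 338 and 313 on the VND6_12h arrays, against 34.4, 38.2 and 32.4 on the SND1_12h arrays and 24.7, 28.0 and 28.0 on the wt_12h arrays (3.37 ± 0.48, adjusted p = 0.000642). The SND1_12h arrays lay just above those of wt cells and VND6_12h far above both. TBL19 and TBL39 were no longer called with replicates 2 and 3 averaged.

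Among other wall and secreted proteins, AT5G26330 and AT3G27200, of the plastocyanin-like copper protein family, were both higher. AT5G26330 gave 4646, 5953 and 7058 on the VND6_12h arrays, against 52.6, 20.4 and 25.2 on the SND1_12h arrays and 4.22, 23.7 and 3.93 on the wt_12h arrays (7.39 ± 0.51, adjusted p = 3.49e-07). Its SND1_12h arrays overlapped the wt_12h arrays. AT3G27200 gave 1246, 3052 and 4437 on the VND6_12h arrays, against 75.5, 172 and 143 on the SND1_12h arrays and 1.44, 3.96 and 8.16 on the wt_12h arrays, so that both lines stood above wt cells (4.33 ± 0.68, adjusted p = 0.00133). Expansins, which loosen growing walls, had no call among 9 tested genes. The nearest was EXPA9, with 648, 1308 and 1341 on the VND6_12h arrays, against 2387, 3964 and 3805 on the SND1_12h arrays (-1.66 ± 0.46, adjusted p = 0.0675), groups that did not overlap. The lectins AT1G52060 and AT1G52050, of the jacalin type, were both lower in VND6 cells, and as relatives they may share part of their signal. AT1G52060 gave 48.5, 30.3 and 21.9 on the VND6_12h arrays, against 1154, 2469 and 3147 on the SND1_12h arrays and 24.3, 19.3 and 7.55 on the wt_12h arrays. AT1G52050 gave 36.6, 61.3 and 33.3 on the VND6_12h arrays, against 974, 1869 and 1540 on the SND1_12h arrays and 34.5, 3.49 and 23.7 on the wt_12h arrays. In both lectin genes the VND6_12h arrays overlapped those of wt cells. The difference of AT1G52060 was -5.84 ± 0.57 (adjusted p = 1.53e-05) and that of AT1G52050 was -4.92 ± 0.70 (adjusted p = 0.000641). AT3G27200 was no longer called with replicates 2 and 3 averaged.

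The list of cell death and autolysis, which holds proteases and nucleases that clear the dying vessel, had no call in either direction among the members tested. Of its 19 genes, 9 were named and 7 tested, and their differences ran from -0.67 to 0.63 with a median of -0.28. The nucleases BFN1, RNS1 and RNS3 and the proteases XCP1, XCP2, XSP1 and MC9 were not named by the annotation used. They were therefore not tested, and the absence of a call does not cover them. SCPL48, a serine carboxypeptidase of xylem, gave 23367, 20425 and 18316 on the VND6_12h arrays, against 12382, 13120 and 14591 on the SND1_12h arrays and 1425, 591 and 502 on the wt_12h arrays. Both lines lay far above wt cells, and VND6_12h lay above SND1_12h on every array, yet the difference of 0.63 ± 0.46 was not called (adjusted p = 0.703). DMP4 gave 321, 251 and 304 on the VND6_12h arrays, against 324, 438 and 431 on the SND1_12h arrays and 23.3, 32.6 and 13.2 on the wt_12h arrays. Here too both lines were above wt cells, with a difference between them of -0.44 ± 0.32 (adjusted p = 0.707). PASPA3 (listed as AT4G04460), an aspartic protease of xylem, gave 78.9, 105 and 103 on the VND6_12h arrays, against 77.1, 232 and 201 on the SND1_12h arrays, groups that overlapped. Its difference was -0.67 ± 0.63 (adjusted p = 0.817). The summed signal of SCPL48, DMP4 and PASPA3, the 3 tested of 9 vessel and autolysis markers, was 18723 to 23767 on the VND6_12h arrays, 12783 to 15223 on the SND1_12h arrays and 533 to 1452 on the wt_12h arrays. SCPL48 made up most of each sum, whereas the differences of DMP4 and PASPA3 were negative, so the sum does not describe the 3 markers alike. The vacuolar processing enzyme GAMMA-VPE differed by -0.49 ± 0.28, and SCPL49 by -0.28 ± 0.16, and neither was called. A p that misses the threshold does not show that these genes were at the same level in both lines.

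Among the 30 named genes with the largest differences were 2 proteases and a protease inhibitor. SBTI1.1, a subtilisin-like serine protease, gave 932, 1657 and 1329 on the VND6_12h arrays, against 25.8, 27.5 and 18.6 on the SND1_12h arrays and 42.7, 27.1 and 29.7 on the wt_12h arrays. Only VND6_12h lay above the wt_12h arrays (5.51 ± 0.36, adjusted p = 1.96e-07). AT1G62170, a gene of the serpin family of protease inhibitors, gave 2240, 3897 and 4623 on the VND6_12h arrays, against 40.2, 58.7 and 57.0 on the SND1_12h arrays and 16.2, 30.03 and 37.6 on the wt_12h arrays (5.95 ± 0.62, adjusted p = 2.94e-05). The SND1_12h arrays lay slightly above those of wt cells. AT1G29090, which encodes a papain-type cysteine protease, gave 495, 328 and 268 on the VND6_12h arrays, against 5062, 6533 and 7659 on the SND1_12h arrays and 802, 738 and 701 on the wt_12h arrays (-4.15 ± 0.43, adjusted p = 2.54e-05). It was below the wt level in VND6 cells and above it in SND1 cells.

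AT1G79620, a receptor-like kinase with leucine-rich repeats, gave 510, 277 and 259 on the VND6_12h arrays, against 5.86, 4.51 and 1.23 on the SND1_12h arrays (5.41 ± 0.57, adjusted p = 3.55e-05). AT4G28650, another such kinase chosen after its values were seen, gave 1170, 2361 and 2341 on the VND6_12h arrays, against 178, 226 and 191 on the SND1_12h arrays and 34.8, 45.8 and 23.0 on the wt_12h arrays (3.21 ± 0.39, adjusted p = 0.000139). In AT1G79620 only VND6_12h stood above wt cells (1.68, 2.64 and 10.6), whereas in AT4G28650 both lines did. AT3G03770, also of this kinase type, gave 5.55, 2.97 and 0.99 on the VND6_12h arrays, against 101, 167 and 166 on the SND1_12h arrays (-4.32 ± 0.63, adjusted p = 0.00072). Its level in VND6 cells overlapped that of wt cells (3.21, 3.53 and 0.90), near the floor of the array.

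Of 9 tested bZIP transcription factors, 1 was higher and 2 were lower. bZIP44 gave 467, 584 and 605 on the VND6_12h arrays, against 1201, 1678 and 1897 on the SND1_12h arrays and 1468, 1174 and 1149 on the wt_12h arrays, so that VND6_12h lay below both (-1.50 ± 0.26, adjusted p = 0.0033). At 0 h its difference had the other sign, 1.17, which was not called (adjusted p = 0.137). bZIP19, a zinc-deficiency regulator, was lower at 791, 800 (799.7) and 742 on the VND6_12h arrays, against 1562, 1198 and 1090 on the SND1_12h arrays (-0.70 ± 0.16, adjusted p = 0.0271). BZIP17, a membrane-bound stress regulator, was higher at 843, 893 and 829 on the VND6_12h arrays, against 541, 435 and 383 on the SND1_12h arrays (0.92 ± 0.22, adjusted p = 0.0324). The last 2 calls were fragile: leaving out 1 array ended that of bZIP19 in 4 of 6 cases (SND1_12h array 1 or 2, VND6_12h array 2 or 3) and that of BZIP17 in 5 of 6 (any but SND1_12h array 1), with adjusted p of up to 0.144 and 0.176. The 5 tested WRKY, 5 bHLH and 6 Aux/IAA genes included no call. Among U-box ubiquitin ligases, 1 of 8 was called: PUB25 gave 381, 387 and 330 on the VND6_12h arrays, against 36.6, 99.2 and 94.3 on the SND1_12h arrays and 22.3, 5.95 and 19.3 on the wt_12h arrays (2.31 ± 0.45, adjusted p = 0.00787). Both lines lay above wt cells. AT3G03770, the 3 bZIP genes and PUB25 were no longer called with replicates 2 and 3 averaged.

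The other members of the 15 largest positive differences have no gene symbol beyond the locus in the annotation. AT3G52900 gave 2781, 3826 and 4589 on the VND6_12h arrays, against 38.4, 17.98 and 9.85 on the SND1_12h arrays and 3.92, 3.07 and 3.64 on the wt_12h arrays (7.26 ± 0.66, adjusted p = 7.8e-06). AT1G63520 gave 2577, 3849 and 3379 on the VND6_12h arrays, against 130 (129.9), 109 and 101 on the SND1_12h arrays and 29.0, 12.4 and 1.22 on the wt_12h arrays (4.79 ± 0.68, adjusted p = 0.000642). In both of these loci the SND1_12h arrays lay above those of wt cells. AT3G63050, AT1G13310, AT5G64690 and AT1G52470 had differences of 6.26 ± 0.76, 6.14 ± 0.77, 5.29 ± 0.73 and 4.62 ± 0.44, and in each the SND1_12h signals were 14.4 or lower. In AT1G52470 the SND1_12h arrays (14.4, 3.84 and 3.096) lay below those of wt cells (24.6, 23.1 and 18.8). Over all 15 genes the VND6_12h arrays lay above the wt_12h arrays. The SND1_12h arrays lay above them in 7 genes, overlapped them in 7 and lay below in 1. AT1G63520 was no longer called with replicates 2 and 3 averaged.

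**Figure D3:**
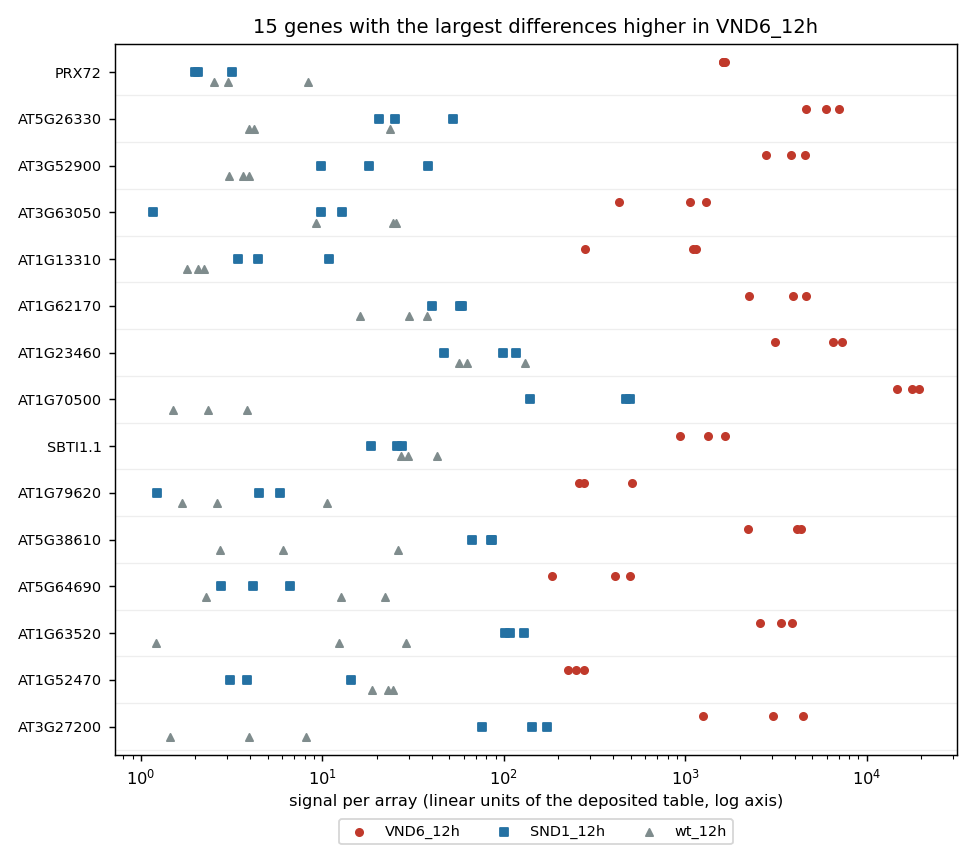
Signals of the 15 named genes with the largest differences higher in VND6_12h are plotted per array on a log axis, with VND6_12h as circles, SND1_12h as squares and wt_12h as triangles (3 arrays each). The VND6_12h arrays stand to the right of both other groups in every gene, for example PRX72 at 1613 to 1658. Lying clear of SND1_12h was a condition of the naming rule, whereas wt_12h was not part of it.

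Among the 15 largest negative differences, AT5G16230, a gene of the acyl-carrier-protein desaturase family, gave 5.16, 15.6 and 21.3 on the VND6_12h arrays, against 334, 798 and 849 on the SND1_12h arrays and 1.35, 11.1 and 1.16 on the wt_12h arrays (-5.18 ± 0.62, adjusted p = 0.000139). SND1_12h alone stood well above wt cells. AT3G19430, AT3G13820, AT5G40980 and AT3G09960 were alike in that their VND6_12h signals, 35.2 at the highest, overlapped wt cells, while their SND1_12h signals were 60.9 at the lowest. Their differences were -4.17 ± 0.80, -3.42 ± 0.58, -3.42 ± 0.65 and -3.33 ± 0.41. AT3G30670 had another arrangement, with 4.41, 5.38 and 1.26 on the VND6_12h arrays, against 53.4, 90.9 and 83.2 on the SND1_12h arrays and 92.7, 599 and 711 on the wt_12h arrays. It was already apart before induction, at 8.63, 1.95 and 2.57 on the VND6_0h arrays, against 67.7, 82.1 and 132 on the SND1_0h arrays. Its difference was -3.52 at 0 h and -3.33 ± 0.82 at 12 h (adjusted p = 0.144 and 0.0376), its probe set is of the type that can match more than 1 transcript, and its 12 h call was lost without any 1 of the 6 arrays, with an adjusted p of up to 0.153. In the 15 genes the SND1_12h arrays lay above the wt_12h arrays in 14 and below in 1, AT3G30670. The VND6_12h arrays overlapped the wt_12h arrays in 11, lay above them in 2 and below in 2. With replicates 2 and 3 averaged, AT3G19430, AT3G13820, AT5G40980 and AT3G30670 were no longer called.

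**Figure D4:**
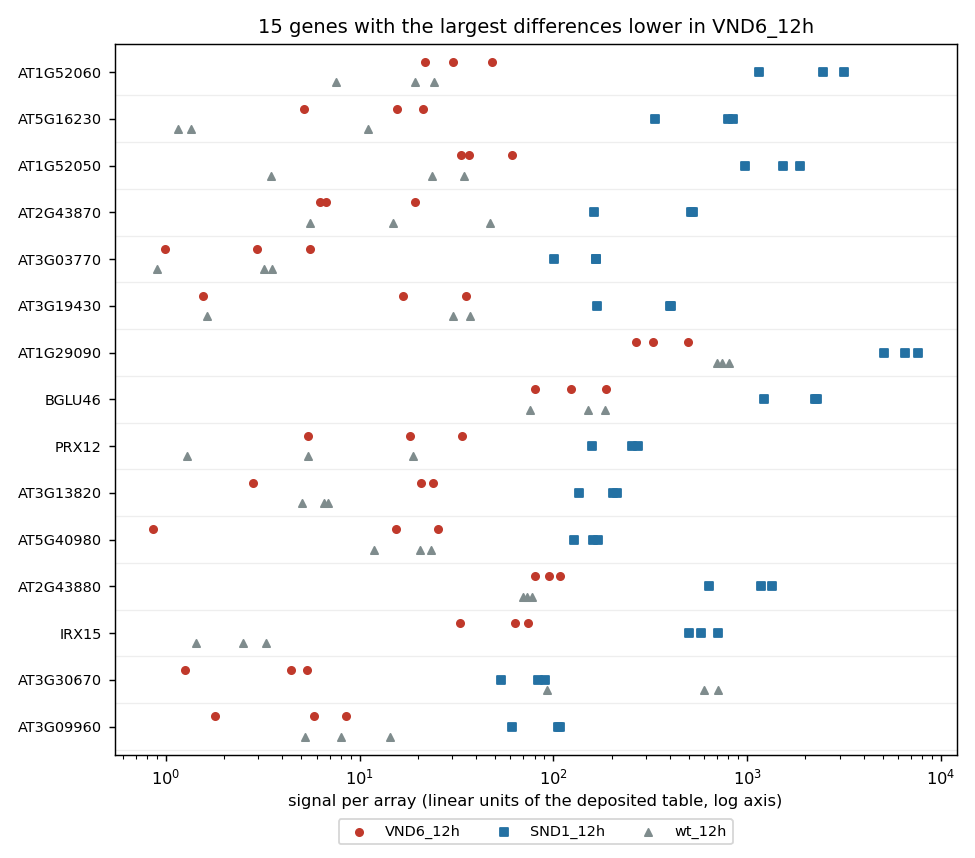
Signals of the 15 named genes with the largest differences lower in VND6_12h are plotted per array on a log axis, with VND6_12h as circles, SND1_12h as squares and wt_12h as triangles (3 arrays each). SND1_12h arrays stand to the right of the wt_12h arrays in 14 of the 15 genes, the exception being AT3G30670.

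GSTU22, a tau class glutathione transferase, gave 370 (369.6), 1338 and 1225 on the VND6_12h arrays, against 61.0, 55.9 and 85.8 on the SND1_12h arrays and 29.2, 50.0 and 56.0 on the wt_12h arrays. It was the 1 called among 7 tested of its class (3.59 ± 0.50, adjusted p = 0.000484). Of 25 UDP-glycosyltransferases, 1 was higher and 1 lower. UGT76B1, which conjugates immune signals, was lower at 25.2, 54.0 and 97.2 on the VND6_12h arrays, against 205, 282 and 285 on the SND1_12h arrays and 214, 336 and 407 on the wt_12h arrays (-2.21 ± 0.37, adjusted p = 0.00266). UGT87A2 was higher at 1229, 913 and 1058 on the VND6_12h arrays, against 430.0, 591 and 593 on the SND1_12h arrays (0.99 ± 0.20, adjusted p = 0.00854), a call lost without SND1_12h array 1 (adjusted p = 0.0528). Beta-glucosidases had 3 of 6 tested genes lower and none higher, with a median of -1.28. Beside BGLU46 these were BGLU25, with 433, 274 and 287 on the VND6_12h arrays, against 740.4, 717 and 826 on the SND1_12h arrays (-1.22 ± 0.21), and BGLU16 (-1.33 ± 0.32). The BGLU16 call was lost without SND1_12h array 2 or 3 or VND6_12h array 2 or 3, with an adjusted p of up to 0.192. Tetraspanins, membrane proteins that organise other proteins, had 1 call among 9: TET13 gave 70.8, 30.01 and 46.4 on the VND6_12h arrays, against 270.0, 477 and 415 on the SND1_12h arrays and 36.8, 5.67 and 16.4 on the wt_12h arrays (-2.91 ± 0.58, adjusted p = 0.0095). That call was lost without SND1_12h array 2 or 3 or VND6_12h array 2 (adjusted p up to 0.0634). Of the autophagy genes, 1 of 8 was called, the ubiquitin-like ATG8F, with 499, 539 and 561 on the VND6_12h arrays, against 1109, 1104 and 948 on the SND1_12h arrays and 1022, 1355 and 1598 on the wt_12h arrays (-0.98 ± 0.16, adjusted p = 0.00233). With replicates 2 and 3 averaged, GSTU22 and BGLU46 alone of these families were still called.

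No call fell in the 13 serine carboxypeptidase-like, 8 cytochrome P450, 8 IQ-domain, 7 tubulin, 7 aldehyde dehydrogenase, 5 cellulose synthase-like or 3 xyloglucan endotransglucosylase genes tested. The closest of these was ALDH2C4, an enzyme of ferulate and sinapate synthesis, with 1181, 667 and 760 (759.7) on the VND6_12h arrays, against 2187, 2586 and 2583 on the SND1_12h arrays (-1.53 ± 0.40, adjusted p = 0.0513). SCPL20, a carboxypeptidase-like gene, gave 3757, 7605 and 7938 on the VND6_12h arrays, against 1394, 2072 and 1801 on the SND1_12h arrays (1.81 ± 0.50, adjusted p = 0.0662). The arrays of the 2 lines did not overlap in either gene. The lists of auxin response (4 tested), cell cycle (3), primary wall (2), procambium and cambium (2), photosynthesis (1), microtubules and wall patterning (1) and downstream transcription factors (1) had no call. C3H14, a zinc finger protein downstream of the wall regulators, gave 148, 215 and 190 (189.6) on the VND6_12h arrays, against 189, 278 and 281 on the SND1_12h arrays and 70.1, 8.69 and 19.5 on the wt_12h arrays. Both lines exceeded wt cells, and their ranges overlapped each other (-0.42 ± 0.70). The reference genes TIP41-LIKE and SAND differed by 0.15 ± 0.18 and -0.04 ± 0.21. Genes of the NAC, secondary wall cellulose, phloem, suberin and cytokinin lists were not analysed here, because no member was both named by the annotation used and bright enough to test. The summed signal of the 3 tested cell cycle markers was 919 to 1122 on the VND6_12h arrays and 717 to 1155 on the SND1_12h arrays. These markers did not share a direction: MCM7, the brightest, differed by 0.63 ± 0.30, AUR1 by -0.96 ± 0.51 and AUR2 by -1.55 ± 0.45, none of them called. That of the photosynthesis marker RCA was 15.5 to 33.2 in VND6_12h and 40.8 to 54.9 in SND1_12h, a difference that was not called. The part of cell makeup in the differences was not tested, and with RNA of whole cultures fewer cells with a transcript and less of it in each cell cannot be told apart.

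**Figure D5:**
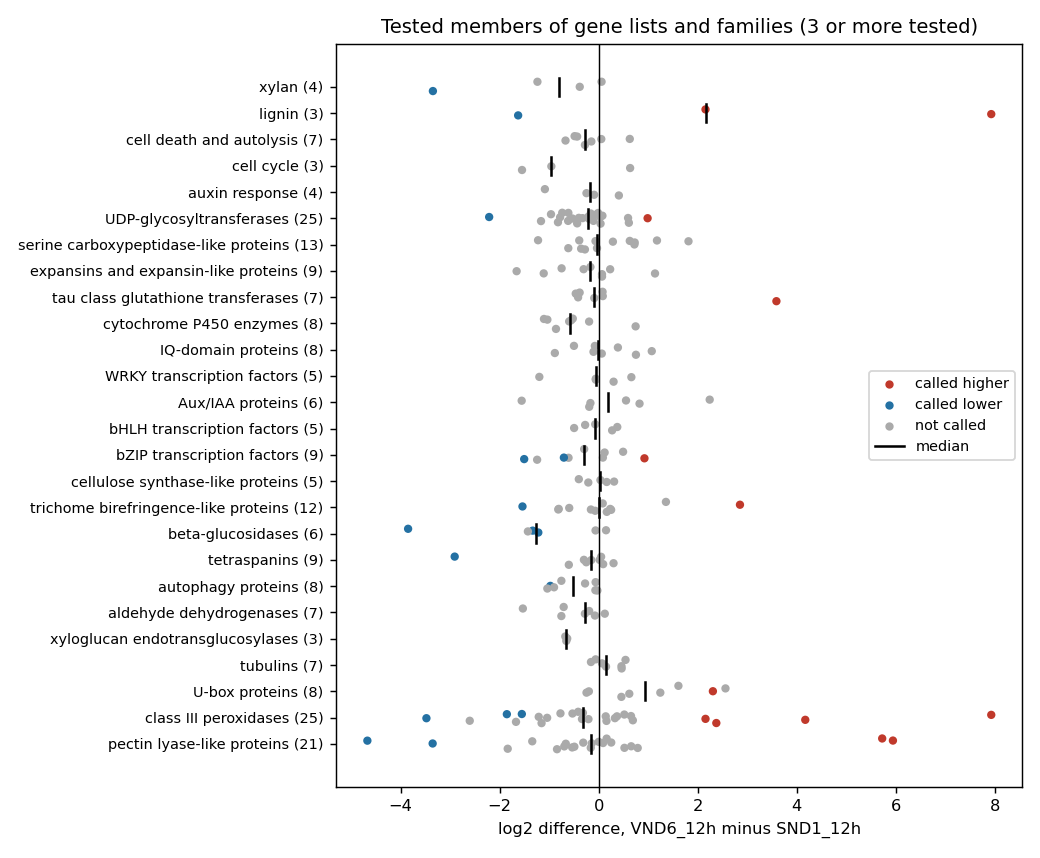
Each point is 1 tested gene of a list or family with 3 or more tested members, placed at its log2 difference, VND6_12h minus SND1_12h, with called genes in red (higher) and blue (lower), the rest in grey and the group median as a black bar. Class III peroxidases and pectin lyase-like proteins hold called genes on both sides of 0, and the cell death list holds none.

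The wt_12h arrays placed the differences in relation to untransformed cells. In 153 of the 163 probe sets called higher (93.9%) the wt_12h mean was nearer to SND1_12h, against 64.5% of all tested. In the 279 called lower it was nearer to SND1_12h in 152 (54.5%) and nearer to VND6_12h in 127. Of the 163 called higher, 82 had both lines above wt cells, 63 had VND6_12h above them and SND1_12h overlapping, 10 had VND6_12h above and SND1_12h below, 6 had VND6_12h overlapping and SND1_12h below, and 2 had both overlapping. The 279 called lower were spread more evenly. In 82 SND1_12h lay above wt cells and VND6_12h overlapped them, and in another 82 VND6_12h lay below and SND1_12h overlapped. Both lines lay below in 49, the lines lay on opposite sides in 31, both lay above in 28 and both overlapped in 7. Over all probe sets tested, VND6_12h lay above the wt_12h arrays in 15.6% and below them in 27.2%, and SND1_12h lay above in 19.3% and below in 23.4%. These shares share the VND6_12h and SND1_12h arrays with the calls and are given as a description.

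Before induction the same lines differed little by this test. At 0 h, 2 of 15715 probe sets were called in VND6_0h against SND1_0h (0.0127%), 1 higher and 1 lower (0.00636% each), and neither is tied to a single gene in the annotation. At an unadjusted p under 0.05 there were 1741 at 0 h and 1924 at 12 h, and with replicates 2 and 3 alone the VND6_0h against SND1_0h comparison gave 4455 calls. Without VND6_0h array 1 it gave 375 calls, without SND1_0h array 1 it gave 4, and without VND6_0h array 2 or 3 or SND1_0h array 2 it gave 1. Among the 163 probe sets called higher at 12 h, the median difference at 0 h was 0.05, and 5 differed by over 1 in the same direction. Among the 279 called lower it was -0.24, against -0.07 over all tested, and 16 differed by over 1 in the same direction. Of the 30 named genes with the largest differences, AT1G70500 (1.38), AT1G62170 (-1.36), AT3G19430 (-1.34) and AT3G30670 (-3.52) differed by more than 1 at 0 h, and none of these 0 h differences was called.

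The 12 h difference less the 0 h difference, which is the VND6 response minus the SND1 response, was called for 117 probe sets (0.745%), 69 of them positive (0.439%) and 48 negative (0.305%). It shares the 12 h arrays with the comparison above, so the values are set side by side. Of the 15 genes with the largest positive 12 h differences, 14 were also called here, the exception being AT1G63520 (4.01 ± 0.97, adjusted p = 0.0832), and of the 15 with the largest negative ones 11 were. PRX72 had 7.99 here and 7.93 at 12 h, IRX15 had -3.56 and -3.35, and BGLU46 had -2.97 and -3.85. bZIP44 had -2.67 here and -1.50 at 12 h, with its positive difference at 0 h. Same-numbered arrays of a line at 12 h and 0 h deviated together, but arrays 2 and 3 did so across numbers nearly as much. With the replicate number as a block, the VND6 response minus SND1 response was called for 141 probe sets. In the fit without a block, PRX12, AT3G19430, AT5G40980 and AT3G30670 were those of the 15 largest negative 12 h differences not called. Their values were -3.54, -2.83, -2.74 and 0.19.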

How the data were processed

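The cells were profiled on Affymetrix ATH1 arrays from total RNA. Per the submitters' processing notes the signals came from GCOS, and no source used here gives its version or algorithm. The authors deposited linear intensity, and every array's 2% trimmed mean lay between 500.045 and 500.058, so no further scaling was applied. Analysis used log2(value + 4.32). After 64 control probe sets were removed, those at or above the 40th percentile of an array's signals on at least 3 of 18 arrays were kept, 15715 in all. Dim signals are noisy and limit the precision of large differences. The platform annotation gave 1 gene to 13513 probe sets, several to 503 and none to 8730; 13436 were matched to RefSeq TAIR10.1, used for names only. Of the 168 genes on the 16 lists, 34 were named on the array.

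A limma 3.58.1 model (R 4.3.3; lmFit, contrasts, eBayes with an intensity trend) covered the group means of the 18 arrays; tests were 2-sided, with Benjamini-Hochberg adjustment over all probe sets tested. The procedure was also run on simulated data with independent arrays. Those data lack the closeness of replicates 2 and 3 seen here, so the run does not bear on it. The naming rule took the 15 largest differences each way among called probe sets with 1 gene and no overlap between the 6 arrays, 1 probe set a gene (highest mean signal), and up to 4 members of each list and family with the smallest adjusted p. Other named genes are marked as chosen after their values were seen or are list members given for their values. The members and lists were chosen with earlier results of these data known. Families were to be defined by words in gene descriptions, which the annotation used does not hold. They were redefined by symbol, and the peroxidases and pectin lyase-like genes by locus lists from general knowledge, after values were seen. Roles of genes are background knowledge. Alternatives were quantile normalization, other filters and pseudocounts, no intensity trend, only the arrays compared, a replicate block, replicates 2 and 3 only or averaged, and leaving out each array.

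As a check of pairing by replicate number, each array's group mean was subtracted and the remainders of arrays with equal numbers were correlated. The coefficients were 0.141, 0.0384 and 0.122 between VND6_12h and SND1_12h, below the limit of 0.1 in 1 pair, so these arrays were treated as unpaired, and 0.398, 0.245 and 0.287 between VND6_0h and SND1_0h, which pairs them by that limit. Between 12 h and 0 h they were 0.308, 0.205 and 0.207 for VND6 and 0.326, 0.188 and 0.190 for SND1, also paired by that limit. Arrays 2 and 3 also correlated across numbers, at 0.196 and 0.183 for VND6 and 0.173 and 0.164 for SND1. Between VND6_0h and SND1_0h they did so at 0.179 and 0.229. The limit therefore cannot tell pairing by number from array 1 standing apart from arrays 2 and 3. The values printed at 0 h and for the responses nevertheless come from the fit without a block, with the blocked counts given among the alternatives.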

Additional observations from a re-analysis of the deposited data

Results flagged for a closer look

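The VND6 and SND1 responses differed between the lines, by the limma test of the difference itself, for 117 probe sets, and the named genes among them follow with that difference on the log2 scale, VND6 response minus SND1 response. The positive values were 7.99 for PRX72, 7.75 for AT5G26330, 7.44 for AT3G52900, 7.31 for AT1G62170, 6.41 for AT1G23460, 6.02 for AT3G63050, 5.52 for AT5G64690, 5.38 for AT1G13310, 5.29 for AT5G38610, 5.17 for AT1G79620, 5.10 for SBTI1.1, 4.94 for AT3G27200, 4.35 for AT1G70500, 3.90 for AT1G52470, 3.81 for AT4G28650 and 3.54 for GSTU22. The negative values were -5.50 for AT5G16230, -4.93 for AT3G03770, -4.86 for AT1G52060, -4.65 for AT1G52050, -4.36 for AT2G43870, -3.93 for AT3G13820, -3.70 for TET13, -3.56 for IRX15, -3.45 for AT1G29090, -3.18 for AT2G43880, -3.16 for AT3G09960, -2.97 for BGLU46, -2.67 for bZIP44 and -1.87 for PRX42. What sets these responses apart was not tested.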

How the results depend on the processing

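In VND6_12h against SND1_12h (442 calls), replicates 2 and 3 only gave 4634 calls, averaging them gave 58, and leaving out 1 array gave 235 to 651. The replicate block on all arrays gave 561 and ended the call of no named gene but ICL. The block with only the arrays compared gave 504 and ended those of AMY1, AT3G19430, BGLU16, BZIP17, PRX49, SFP1, UGT87A2 and bZIP19; numbers 2 and 3 of these groups correlated at 0.0384 and 0.122, and the highest correlation between different numbers was 0.132. In VND6_0h against SND1_0h (2 calls) the counts were 3 with the replicate block, 0 with the block on only the arrays compared, 1 with only the arrays compared, 4455 with replicates 2 and 3 only, 0 with them averaged and 1 to 375 without 1 array; at an unadjusted p under 0.05 the fit of all arrays gave 1741. In VND6 response minus SND1 response (117 calls) they were 141 with the replicate block, 169 with the block on only the arrays compared, 2586 with replicates 2 and 3 only, 12 with them averaged and 66 to 194 without 1 array. The other settings (quantile normalization, filters, pseudocounts, no trend) kept all 3 counts within 1.5 times. Of 58 called named genes, 26 kept their call in every setting run and none changed sign while called; of the 30 with the largest differences, 22 did, and 28 kept it without any 1 array. Besides averaging, the block and left-out arrays, calls ended for bZIP19, PRX49, BGLU16, AMY1, SFP1 and ICL with only the arrays compared, for BGLU16, AMY1 and ICL under quantile normalization, for BGLU16 without the filter, for PRX12, AT5G40980 and ICL without a pseudocount and for AT3G30670 with a pseudocount 4 times larger. Causes were not tested. Under the filter at the 60th percentile the dimmest named genes were not tested. The promoter motif description and its window were not run, since no promoter sequence was given. With 3 arrays a group, and many signals near the floor, small differences of dim probe sets were not detectable.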

Other observations

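PPDK, ASPGB1, SFP1, ICL and AMY1, 5 genes of carbon and nitrogen metabolism or sugar transport, were picked after their values were seen from those called lower in VND6_12h, and no count of such genes was made. PPDK, which makes phosphoenolpyruvate from pyruvate, gave 152, 70.7 and 68.3 on the VND6_12h arrays, against 331, 427 and 398 on the SND1_12h arrays and 307, 322 and 422 on the wt_12h arrays (-2.03 ± 0.29, limma adjusted p = 0.000663). ASPGB1, an asparaginase, gave 338, 319 and 312 on the VND6_12h arrays, against 737, 1061 and 1028 on the SND1_12h arrays and 838, 966 and 985 on the wt_12h arrays (-1.51 ± 0.30, adjusted p = 0.00832). In both genes VND6_12h alone lay below the level of wt cells. SFP1, a sugar transporter of senescing tissue, gave 31.4, 19.5 and 14.3 on the VND6_12h arrays, against 80.1, 44.8 and 68.4 on the SND1_12h arrays and 140 (139.7), 181 and 171 on the wt_12h arrays (-1.42 ± 0.27, adjusted p = 0.0057), with both lines below wt cells. ICL, isocitrate lyase of the glyoxylate cycle, gave 16.05, 124 and 106 on the VND6_12h arrays, against 443, 625 and 646 on the SND1_12h arrays and 81.4, 4.24 and 10.4 on the wt_12h arrays (-3.10 ± 0.77, adjusted p = 0.0398), with SND1_12h above wt cells. AMY1, an alpha-amylase, differed by -1.92 ± 0.46 (adjusted p = 0.0313). The ICL call was lost without any 1 array other than VND6_12h array 2 (adjusted p up to 0.148), under the replicate block, without a pseudocount, under quantile normalization and with only the arrays compared. The AMY1 call was lost without VND6_12h array 1 or 3 or SND1_12h array 2 or 3 (up to 0.152), and the ASPGB1 call without SND1_12h array 2 or 3 (up to 0.0548). None of the 5 was called with replicates 2 and 3 averaged.

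Among other genes chosen after their values were seen, HMT-1, a homocysteine methyltransferase, gave 2056, 3422 and 2998 on the VND6_12h arrays, against 861, 732 and 793 on the SND1_12h arrays and 652, 677 and 822 on the wt_12h arrays (1.79 ± 0.33, adjusted p = 0.00539). OSM34, an osmotin-like defence protein, gave 173, 139 and 118 on the VND6_12h arrays, against 559, 526 and 507 on the SND1_12h arrays and 246, 1160 (1159.9) and 1293 on the wt_12h arrays (-1.87 ± 0.41, adjusted p = 0.019). The OSM34 call was lost without any 1 array other than VND6_12h array 1, with an adjusted p of up to 0.0964. Neither was called with replicates 2 and 3 averaged.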
